A study of Mus musculus with 6 samples.

Results

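The collagen gene family was described in cultured mouse ovarian granulosa cells kept with or without GSK4112, an agonist of the nuclear receptor NR1D1 (REV-ERBα). Members were all protein-coding genes whose symbol in the GENCODE M21 annotation is Col, a number, a and a number. Of 27151 genes with values, 42 were members, and the annotation holds 44 such genes; Col9a1 and Col19a1 were not analysed here. There were 3 GSK4112 and 3 Control libraries of bulk RNA. Granulosa cells from punctured follicles grew for 24 h in medium with serum and went without serum for 12 h in both groups. They were then kept for 24 h with GSK4112 or without it, with fresh medium every 12 h. The design text speaks of treatment in vivo, while the protocol describes culture. The labels used here give neither strain, genotype and age nor whether libraries came from separate animals or cultures, so p-values measure only the spread between these libraries, which may be technical. The study asks how NR1D1 activation acts on the endocrine function of granulosa cells.

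Collagens are secreted proteins of 3 chains wound into a triple helix of Gly-X-Y repeats. Fibrillar collagens build the rope-like fibrils of connective tissue, type IV collagen builds the sheet of basement membranes, and the short-chain types VIII and X build hexagonal networks. Type VI forms beaded filaments, and fibril-associated collagens sit on the surface of fibrils. In the ovary a basement membrane surrounds the granulosa layer of each follicle, and granulosa cells make much of its type IV collagen. Fibrillar collagens are mostly products of theca, stroma and other mesenchymal cells.

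The libraries held 16559256 to 18158273 fragments, as read from the steps of the FPKM values (fragments scaled to exon length and library size). Most granulosa markers were expressed: 14 of 15 listed had a mean FPKM of at least 1. Inha, the inhibin alpha subunit, was at 1370 to 2245 FPKM in GSK4112 and 1834 to 2173 FPKM in Control libraries. Amh was the marker under 1, at 0.253 to 0.448 FPKM in GSK4112 and 0.36 to 0.66 FPKM in Control libraries. The 15 markers summed to 2460, 3060 and 3260 FPKM in GSK4112 and 3400, 3990 and 3950 FPKM in Control libraries. Of the 14 tested, 2, Fst and Hsd17b1, were called lower with GSK4112 (0.624% of all genes tested were). With the replicate number as a block Inhba, Inhbb and Serpine2 were also lower, 5 in all and 0 higher (6.89% of all genes were called). On the first principal component, with 49.4% of the variance, replicate 1 lay below the other libraries of its group. GSK4112 libraries 1 to 3 lay at -13.38, 26.56 and 22.07, and Control libraries 1 to 3 at -38.59, 1.05 and 2.29. Each GSK4112 library lay above the Control library of the same number. The 13 theca and stroma markers summed to 76.4 to 139 FPKM in GSK4112 and 63.2 to 258 in Control libraries, highest in replicate 1 of each group. Acta2 alone was at 125 FPKM in GSK4112 replicate 1 and 234.5 FPKM in Control replicate 1. Ogn, of the same list, was called lower with GSK4112 (log2 change -2.07, adjusted p = 0.0395 in limma), and 9 of the 13, among them Cyp17a1, Pdgfra, Dcn and Lum, had a mean under 1. In GSK4112 and then Control libraries, leukocyte markers summed to 16.9 to 38.3 and 7.21 to 41.5 FPKM, mostly Lyz2, with Ptprc at most 0.0678. Pericyte and smooth muscle markers summed to 3.57 to 5.13 and 4.29 to 11.7, surface epithelium markers to 2.52 to 8.15 and 2.8 to 8.36, endothelial markers to 0.719 to 1.3 and 0.968 to 1.35, and oocyte markers to 0.447 to 1.79 and 0.109 to 4.02 FPKM. Among the smooth muscle markers Myocd was at 0.746, 0.404 and 0.376 FPKM in GSK4112, against 2.68, 1.74 and 2.73 FPKM in Control libraries (log2 change -1.16, adjusted p = 0.05 in limma, just short of a call, and 0.0129 with the replicate block); limma-voom called 1 gene of that list. Oosp1, Sox17, Rgs5 and Kcnj8 were not analysed here. The part of these cells in the collagen values was not tested, and in bulk RNA fewer cells of a type and less RNA per cell cannot be told apart.

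Of the 42 collagen genes, 18 averaged 1 FPKM or more in the 6 libraries and are called expressed here, while 24 lay below. Basement membrane collagens dominated. The 6 type IV genes summed to 482, 288 and 283 FPKM in GSK4112 libraries and 430, 257 and 278 FPKM in Control libraries. They were 76.4 ± 1.29% of all collagen FPKM in GSK4112 and 58.6 ± 1.49% in Control libraries (SD, n = 3 each). All collagens together summed to 643, 375 and 366 FPKM in GSK4112 and 745, 426 and 481 FPKM in Control, or 0.121 to 0.219% and 0.14 to 0.251% of all FPKM. The member just inside the limit was Col6a2 at a mean of 1.07 FPKM, and the member just outside was Col6a3 at 0.977 FPKM. Col6a2 reached the limit only through replicate 1, and was at 0.463 to 0.534 FPKM in the replicate 2 and 3 libraries.

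**Figure D1:**
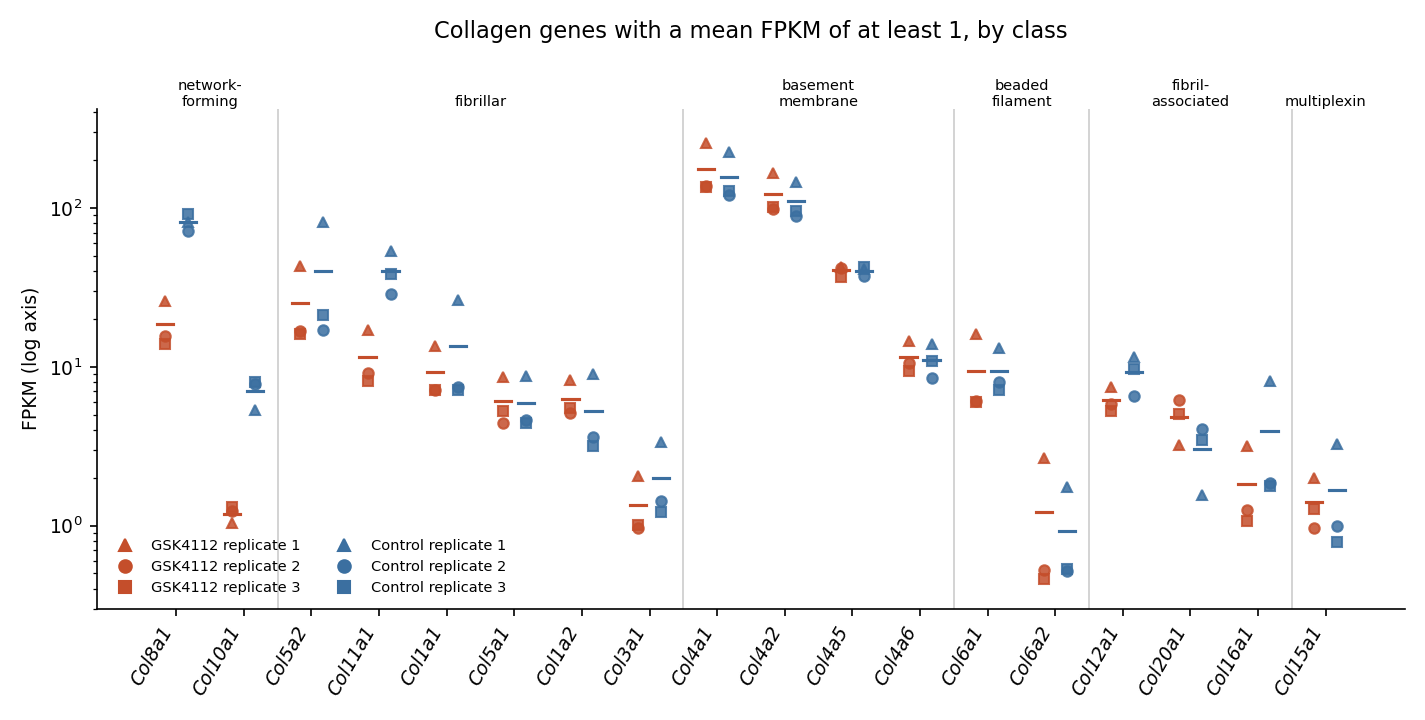
FPKM on a log axis of the 18 expressed collagen genes, grouped by class, with 1 point per library and a line at each group's mean. Col8a1, Col10a1 and Col11a1 are lower in all 3 GSK4112 libraries than in any Control library; in the other 15 genes the groups overlap, and replicate 1 (triangles) is the highest library of both groups in 14 of the 18.

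The network-forming class held both collagens that fell. Its expressed members, Col8a1 and Col10a1, were lower with GSK4112, and they were the sole collagens called among the 18 tested (limma on log2(FPKM + 1), Benjamini-Hochberg adjusted p under 0.05 over all genes tested). That is 11.1% of the expressed collagens, against 1.03% of all 12181 genes tested called in either direction, 0.41% higher and 0.624% lower. Over all genes 50 were higher and 76 lower, and under median-of-ratios scaling 39 were higher and 105 lower. By limma-voom on fragments recovered from the FPKM values the same 2 collagens were called (1.4% of all genes). The median log2 change was -0.08 over the 18 collagens and 0.0543 over all genes tested.

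Col8a1 (ENSMUSG00000068196; GRCm38 chromosome 16, 57624258 to 57754737, minus strand) encodes the alpha 1 chain of type VIII collagen, known from vessel walls and the basement membrane of the corneal endothelium. Its level was 25.8, 15.6 and 14 FPKM in GSK4112 libraries 1 to 3, against 81.2, 72 and 91.7 FPKM in Control libraries. The groups were far apart, and the highest GSK4112 library was replicate 1. The log2 change was -2.13 ± 0.22 (SE, adjusted p = 0.0187 in limma), a mean level 4.42-fold lower, resting on 1912 to 3412 fragments in GSK4112 and 9731 to 11946 in Control libraries. Its partner chain gene Col8a2 was nearly silent, with at most 6 fragments in any library.

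Col10a1 (ENSMUSG00000039462; chromosome 10, 34389981 to 34397085, plus strand) encodes type X collagen, the textbook product of hypertrophic cartilage cells. It was at 1.04, 1.23 and 1.3 FPKM in GSK4112 libraries, against 5.35, 7.77 and 8.06 FPKM in Control libraries. Here replicate 1 was the lowest library of both groups, unlike in most collagens. The log2 change was -1.86 ± 0.16 (adjusted p = 0.0111 in limma), a mean 5.92-fold lower. Its fragments were 55, 64 and 71 in GSK4112 and 304, 420 and 420 in Control libraries. The gene lies wholly inside Nt5dc1 on the other strand and shares 18 exon bases with it; Nt5dc1 was at 5.76, 5.05 and 5.06 FPKM in GSK4112 and 4.75, 5.85 and 5.06 FPKM in Control libraries (log2 change 0.02 ± 0.11, adjusted p = 0.952 in limma).

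Both calls held without both replicate 1 libraries, where Col8a1 changed by -2.38 ± 0.13 and Col10a1 by -1.97 ± 0.11 (adjusted p = 0.00148 for each in limma). They ended when GSK4112 replicate 2 or 3 or Control replicate 2 or 3 was left out, with changes of -2.21 to -1.96 for Col8a1 and -1.90 to -1.77 for Col10a1. Adjusted p then ran from 0.0782 to 0.11 and from 0.0581 to 0.107 in limma, and 0, 0, 8 and 0 of all genes were called (1224, 1318, 1717 and 1843 at an unadjusted p under 0.05). An exact permutation test of each gene alone, two-sided, gave p = 0.1 for both, which is as low as 3 libraries against 3 can go.

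The third collagen whose groups did not overlap was fibrillar. Col11a1 (ENSMUSG00000027966; chromosome 3, 114030540 to 114220718, plus strand) encodes the alpha 1 chain of type XI collagen, a minor fibrillar collagen that limits fibril width in cartilage. Its FPKM was 17.1, 9.07 and 8.18 in GSK4112 libraries, against 53.6, 28.6 and 38.5 in Control libraries. It missed the threshold (log2 change -1.75 ± 0.32, adjusted p = 0.0636 in limma) and passed it with the replicate number as a block (0.00248), without GSK4112 replicate 1 (0.0283) and without both replicate 1 libraries (0.00358). It was also called with sample weights (3 of 18 collagens, against 6.81% of all genes). Col11a1 was not called by limma-voom (0.054), nor by limma under median-of-ratios (0.0534) or TPM scaling (0.0801) or without a filter (0.152). Leaving out any 1 library other than GSK4112 replicate 1 gave an adjusted p of 0.0845 to 0.273 in limma. Non-overlap by itself was common, at 23.6% of all genes tested, 15.7% higher and 7.9% lower, against 3 of the 18 collagens (16.7%), all lower.

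The sequence before the start of transcription is shown for these 3 genes, because they were the expressed collagens whose groups did not overlap. Each line gives 250 bases from the RefSeq promoter table (GRCm38.p6), 5′ to 3′ on the gene's strand, ending at the base before the start: chr16:57754738-57754987 on the minus strand, chr10:34389731-34389980 on the plus strand and chr3:114030290-114030539 on the plus strand. Capitals mark matches on either strand to AGGTCA, the half-site bound by NR1D1 and many other nuclear receptors, TATAAA, the TATA box, GGGCGG, the GC box, and TGANTCA, the AP-1 site.
Col8a1: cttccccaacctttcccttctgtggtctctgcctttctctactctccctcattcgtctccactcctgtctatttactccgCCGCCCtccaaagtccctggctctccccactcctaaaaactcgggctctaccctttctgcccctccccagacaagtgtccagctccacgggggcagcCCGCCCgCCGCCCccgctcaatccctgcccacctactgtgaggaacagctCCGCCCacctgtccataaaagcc
Col10a1: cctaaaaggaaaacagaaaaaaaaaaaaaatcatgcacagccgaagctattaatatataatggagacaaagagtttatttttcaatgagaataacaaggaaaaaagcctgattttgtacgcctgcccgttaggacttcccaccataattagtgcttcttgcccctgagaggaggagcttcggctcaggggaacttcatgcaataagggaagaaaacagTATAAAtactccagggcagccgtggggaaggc
Col11a1: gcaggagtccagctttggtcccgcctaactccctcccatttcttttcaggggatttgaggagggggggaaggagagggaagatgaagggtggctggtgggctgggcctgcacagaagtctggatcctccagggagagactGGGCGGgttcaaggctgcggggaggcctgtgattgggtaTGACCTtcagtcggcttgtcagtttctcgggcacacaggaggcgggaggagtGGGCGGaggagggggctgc

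The 3 windows shared no motif. Col8a1 had 4 GC boxes, at 170 to 165, 73 to 68, 66 to 61 and 23 to 18 bases before the start, and no TATAAA. Col10a1 had a TATAAA at 32 to 27 bases before the start and nothing else searched. Col11a1 had an AGGTCA on the other strand at 71 to 66 bases and GC boxes at 110 to 105 and 19 to 14 bases. Among 32851 promoters of the same length, 32.7% held a GC box, 14% an AGGTCA, 12.4% a TATAAA and 6.75% a TGANTCA. Promoters were found for 33 of the 42 collagens, 35 in all, of which 22 held a GC box, 7 an AGGTCA, 5 a TATAAA and 1 a TGANTCA. No searched match overlapped another in the 3 windows, and GC made up 60.8% of the Col8a1, 41.6% of the Col10a1 and 62.4% of the Col11a1 window, with a median of 52.4% over all promoters.

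**Figure D2:**
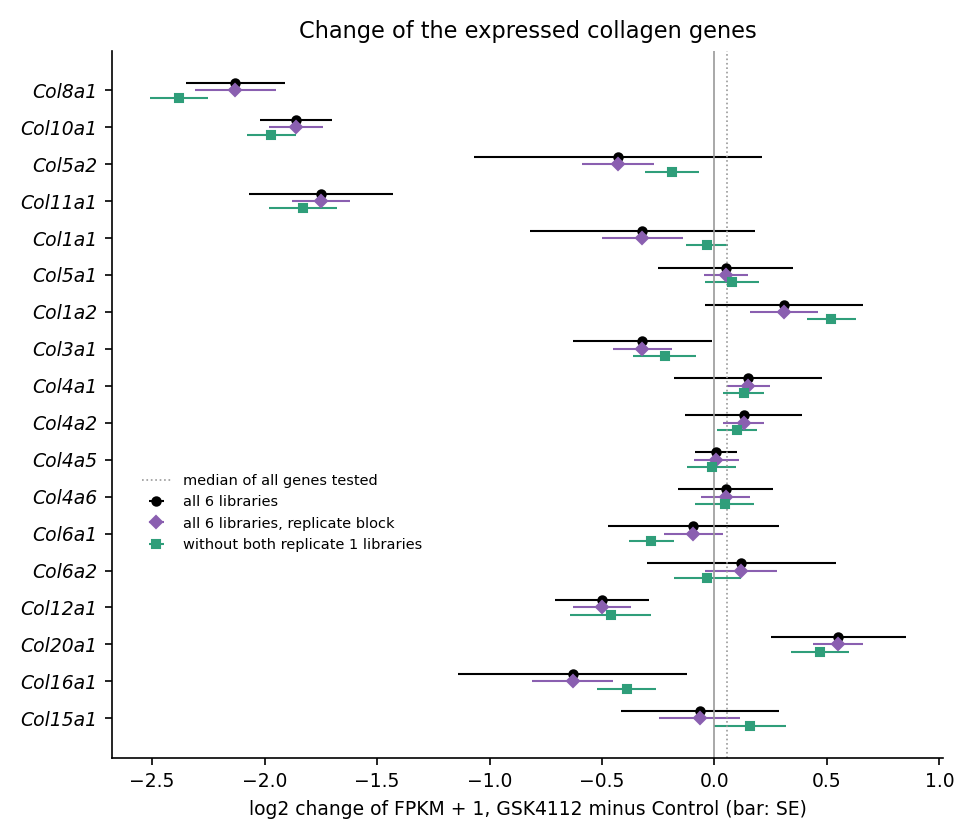
Log2 change of FPKM + 1, GSK4112 minus Control, with limma's SE, for the 18 expressed collagens in the order of the plot of values: all 6 libraries, the same with the replicate number as a block, and without both replicate 1 libraries. Col8a1, Col10a1 and Col11a1 lie between -2.38 and -1.75 in all 3 fits; the other 15 lie between -0.63 and 0.55.

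No fibrillar collagen passed the test. The class summed to 94.7, 45.2 and 44.6 FPKM in GSK4112 libraries and 184, 63.7 and 76.5 FPKM in Control libraries, so replicate 1 was the highest of both groups and the groups overlapped. In limma 0 of the 6 expressed members were called, 1 (Col11a1) at an unadjusted p under 0.05 (17% of all genes tested were), and 0 by limma-voom on recovered fragments; the median log2 change was -0.32. Col5a2, a chain of the type V collagen that starts type I fibrils, was at 43.1, 16.8 and 16.1 FPKM in GSK4112 and 81.6, 17 and 21.1 FPKM in Control libraries (adjusted p = 0.772). Its partner Col5a1 was at 8.63, 4.42 and 5.27 FPKM in GSK4112 and 8.69, 4.62 and 4.4 FPKM in Control libraries (adjusted p = 0.952). In both genes the 2 groups overlapped and replicate 1 was well above the rest.

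Type I collagen, the main collagen of connective tissue, was low for a matrix gene in these cells. Col1a1 was at 13.5, 7.09 and 7.13 FPKM in GSK4112 and 26.2, 7.51 and 7.09 FPKM in Control libraries (log2 change -0.32 ± 0.5, adjusted p = 0.784 in limma). Outside replicate 1 its 4 values lay between 7.09 and 7.51. Col1a2 was at 8.22, 5.1 and 5.48 FPKM in GSK4112 and 9.04, 3.59 and 3.17 FPKM in Control libraries (0.31 ± 0.35, adjusted p = 0.699). Without both replicate 1 libraries its change was 0.52 ± 0.11 and passed the test (adjusted p = 0.0484 in limma). Col3a1, the type III collagen of soft tissues, was at 2.06, 0.96 and 1.01 FPKM in GSK4112 and 3.37, 1.42 and 1.22 FPKM in Control libraries (adjusted p = 0.636).

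The type IV genes are arranged as head-to-head pairs, and 4 of the 6 were expressed. Col4a1 and Col4a2, the chains of nearly all basement membranes, start 21 bases apart on chromosome 8, and their first exons share 22 bases. Col4a1 was at 257, 137 and 136 FPKM in GSK4112 and 224, 121 and 128 FPKM in Control libraries (log2 change 0.15 ± 0.33, adjusted p = 0.849 in limma). Col4a2 was at 166, 98.4 and 101 FPKM in GSK4112 and 145, 89.4 and 95.7 FPKM in Control libraries (0.13 ± 0.26, adjusted p = 0.833). Both were higher in replicate 1 of both groups and overlapped between groups.

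Col4a5 and Col4a6, whose starts lie 1309 bases apart on chromosome X, encode chains found with each other in the basement membranes of smooth muscle and epithelia. Col4a5 was the steadiest expressed collagen, at 42.6, 42.2 and 36.7 FPKM in GSK4112 and 41.1, 37.2 and 42.3 FPKM in Control libraries (0.01 ± 0.094, adjusted p = 0.975 in limma), and its change was slightly below 0 under median-of-ratios scaling. Col4a6 was at 14.5, 10.5 and 9.47 FPKM in GSK4112 and 13.9, 8.52 and 10.9 FPKM in Control libraries (adjusted p = 0.93). Of the 4 type IV genes tested limma called 0, also at an unadjusted p under 0.05 and in limma-voom. The third pair, Col4a3 and Col4a4, starts 72 bases apart on chromosome 1 and was below the expression limit. Col4a3 was at 0.457, 0.0727 and 0.0404 FPKM in GSK4112 and 2.1, 0.198 and 0.289 FPKM in Control libraries. Col4a4 was at 0.953, 0.165 and 0.157 FPKM in GSK4112 and 3.05, 0.202 and 0.413 FPKM in Control libraries, so replicate 1 held most of the signal of both genes.

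**Figure D3:**
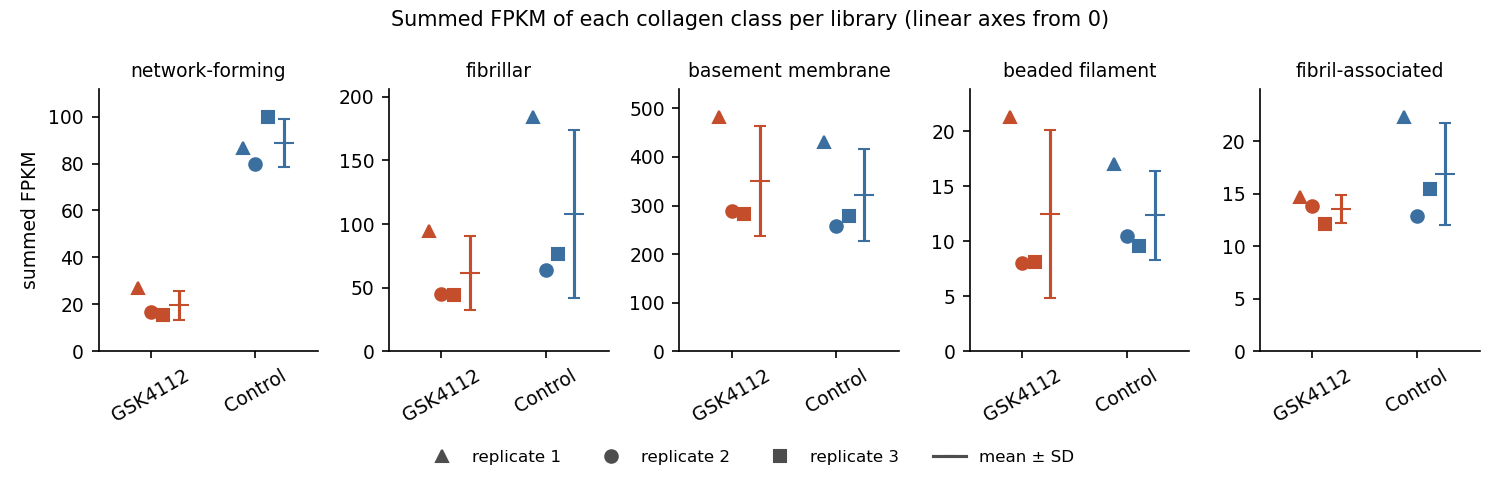
Summed FPKM of each collagen class with expressed genes other than the multiplexins, 1 point per library, with mean ± SD (n = 3 each) beside the points and axes from 0. The network-forming sums are 15.4 to 26.8 in GSK4112 and 79.8 to 99.8 in Control libraries; in the other 4 classes the groups overlap and replicate 1 is the highest library.

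As sums, the network-forming class was at 26.8, 16.8 and 15.4 FPKM in GSK4112 and 86.6, 79.8 and 99.8 FPKM in Control libraries. Its share of collagen FPKM was 4.29 ± 0.172% in GSK4112 and 17.03 ± 4.78% in Control libraries (SD, n = 3 each). These sums follow Col8a1, which held most of the class. The shares of the classes depend on one another, so the higher type IV share in GSK4112 libraries goes with sums of type IV that overlapped between groups.

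Beaded filament, fibril-associated and multiplexin collagens held 6 expressed genes, of which limma called 0 (1, Col12a1, at an unadjusted p under 0.05, and 0 by limma-voom). Col6a1 and Col6a2 encode 2 of the 3 classic chains of type VI collagen. Col6a1 was at 16, 6.09 and 6.04 FPKM in GSK4112 and 13.1, 8.07 and 7.09 FPKM in Control libraries (adjusted p = 0.928). Col6a2 was at 2.66, 0.522 and 0.463 FPKM in GSK4112 and 1.74, 0.515 and 0.534 FPKM in Control libraries (adjusted p = 0.917). The third chain gene, Col6a3, was at 0.878 to 0.969 FPKM in GSK4112 and 0.804 to 1.28 FPKM in Control libraries. Replicate 1 was again highest in both groups for Col6a1 and Col6a2.

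Among the fibril-associated genes Col12a1 was at 7.42, 5.86 and 5.27 FPKM in GSK4112 and 11.6, 6.57 and 9.73 FPKM in Control libraries (log2 change -0.50 ± 0.21, adjusted p = 0.293 in limma). Col20a1 went the other way from most collagens in replicate 1, which was its lowest library in both groups: it was at 3.23, 6.18 and 5.04 FPKM in GSK4112 and 1.56, 4.03 and 3.48 FPKM in Control libraries. Its change of 0.55 ± 0.3 was not called (adjusted p = 0.407) and was called higher with the replicate block (0.0363). It shares 79 of its 5142 exon bases with an annotated overlapping transcript on the same strand, BX649560.1, so the part of its values from those bases is uncertain. Col16a1 was at 3.16, 1.25 and 1.07 FPKM in GSK4112 and 8.1, 1.86 and 1.78 FPKM in Control libraries (-0.63 ± 0.51, adjusted p = 0.573). Col15a1, a multiplexin of the basement membrane zone, was at 1.98, 0.961 and 1.27 FPKM in GSK4112 and 3.24, 1 and 0.786 FPKM in Control libraries (adjusted p = 0.947).

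Most expressed collagens varied with the replicate number. Replicate 1 was the highest library of both groups in 14 of the 18 (77.8%), against 28% of all genes tested, and Col8a1, Col4a5, Col10a1 and Col20a1 were the exceptions. It was at least 1.5 times the mean of the other libraries in both groups in 12 of the 18 (66.7%), against 5.69% of all genes. Replicate 1 is part of the mean used for the expression limit, for collagens and for all genes tested. Col6a2 passed that limit only through replicate 1, so its place in both counts follows from the limit. Summed markers of theca and stroma, of pericytes and smooth muscle, of endothelium, of leukocytes and of surface epithelium were highest in the same libraries. The granulosa sum was lowest there in both groups, and the oocyte sum was highest there in Control only. The theca and stroma sum followed Acta2, while Ptch1 of that list was lowest in replicate 1 of both groups, at 3.97 FPKM in GSK4112 and 3.55 FPKM in Control. The part of these markers in the collagen values was not tested. With the replicate number as a block 4 of the 18 collagens were called, Col8a1, Col10a1 and Col11a1 lower and Col20a1 higher (22.2%, against 6.89% of all genes). Without both replicate 1 libraries 4 were called, Col8a1, Col10a1 and Col11a1 lower and Col1a2 higher (22.2%, against 7.03%).

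Chains of 1 collagen type were compared by the ratio of their FPKM in each library, which library scaling does not change. Col4a1 to Col4a2 was the tightest, at 1.55, 1.39 and 1.35 in GSK4112 and 1.54, 1.36 and 1.34 in Control libraries, although both genes were higher in replicate 1. Col4a5 to Col4a6 was at 2.93, 4.01 and 3.87 in GSK4112 and 2.96, 4.37 and 3.87 in Control libraries. These ratios overlapped between groups, as did those of Col5a1 to Col5a2 (0.107 to 0.328 over the 6 libraries) and Col6a1 to Col6a2 (6.02 to 15.7).

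The groups did not overlap for the other 3 ratios. Non-overlap was common in single genes (23.6% of all genes tested), and its share over pairs of genes was not computed. The ratio of Col11a1 to Col11a2 was not in the planned set, and the planned ratio of Col8a1 to Col8a2 was not computed. Col1a1 to Col1a2 was at 1.65, 1.39 and 1.3 in GSK4112, against 2.9, 2.1 and 2.23 in Control libraries. In protein, type I collagen is usually made of 2 alpha 1 chains and 1 alpha 2 chain. The FPKM ratio is of RNA and does not measure that protein ratio. Its level also depends on the annotated exon lengths, 6563 bases for Col1a1 and 12426 for Col1a2. Col11a1 to Col11a2 was at 13.6, 7.28 and 8.38 in GSK4112, against 83.2, 61.4 and 91.3 in Control libraries. That gap is made from both sides: Col11a2 was at 1.26, 1.25 and 0.977 FPKM in GSK4112, all above the 0.645, 0.466 and 0.422 FPKM of Control libraries. Col4a3 to Col4a4 was at 0.479, 0.441 and 0.257 in GSK4112, against 0.689, 0.978 and 0.7 in Control libraries, from as few as 7 fragments of Col4a3 in a library. None of these ratios was tested beyond the overlap.

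**Figure D4:**
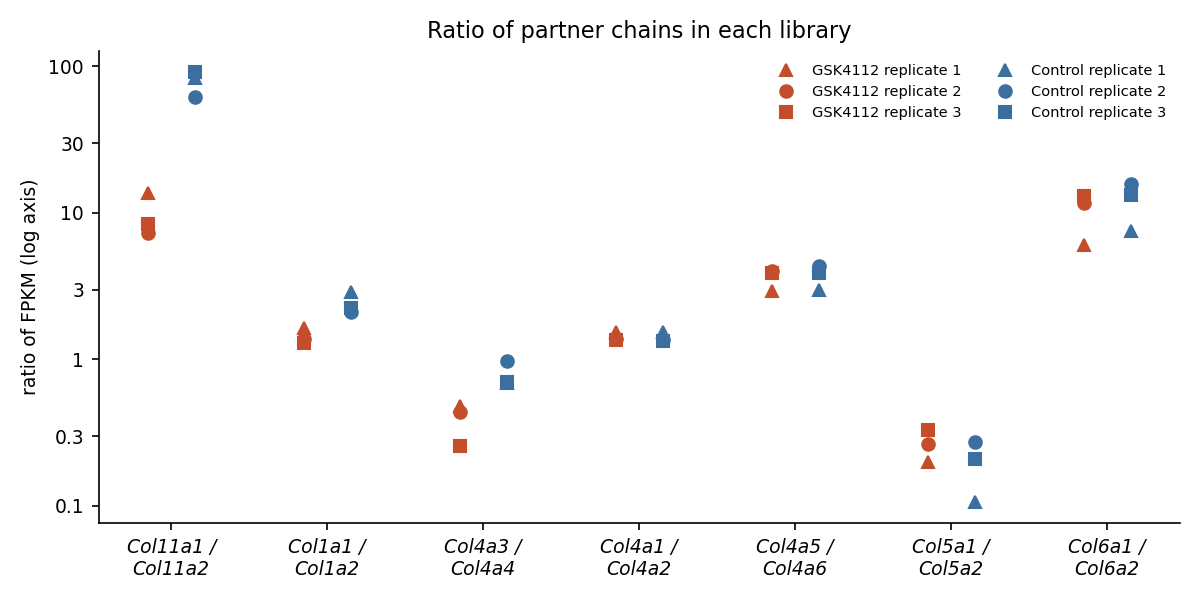
Ratio of the FPKM of partner chains in each library, on a log axis. The ratio of Col11a1 to Col11a2 is 7.28 to 13.6 in GSK4112 and 61.4 to 91.3 in Control libraries, while Col4a1 to Col4a2 stays between 1.34 and 1.55 in all 6.

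The 24 collagens under the limit ranged from a mean of 0.00334 FPKM (Col2a1, the collagen of cartilage) to 0.977 FPKM (Col6a3). Groups did not overlap in 4 of them (16.7%), against 8.67% of all genes under the limit. Of these 4, 2 were higher and 2 lower, 8.33% each, against 5.14% higher and 3.53% lower of all genes under the limit. Those 14970 genes include any with a value above 0 in a library. They were not matched to the collagens for fragments, so the shares are not of like genes. Col11a2 and Col23a1 were higher and Col6a4 and Col25a1 lower in every GSK4112 library than in any Control library. Col6a4, a type VI chain gene, was at 0.139, 0.0921 and 0.135 FPKM in GSK4112, against 0.381, 0.36 and 0.536 FPKM in Control libraries, or 13 to 20 against 53 to 76 fragments. Col25a1, a transmembrane collagen, was at 0.0183, 0.0373 and 0.0489 FPKM in GSK4112, against 0.136, 0.116 and 0.0836 FPKM in Control libraries. Col23a1, also transmembrane, was at 0.227, 0.368 and 0.301 FPKM in GSK4112, against 0.221, 0.202 and 0.147 FPKM in Control libraries. In a fit without the filter their adjusted p was 0.225 (Col11a2), 0.154 (Col6a4), 0.291 (Col25a1) and 0.529 (Col23a1) in limma. That fit called 1 of the 42 collagens, Col10a1, against 0.0958% of all genes.

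The remaining low collagens overlapped between groups. Besides Col4a3 and Col4a4, Col6a3, Col7a1 of anchoring fibrils and Col18a1, the endostatin precursor, they were Col6a5, Col6a6, Col9a2, Col9a3, Col14a1, Col17a1, Col24a1, Col27a1 and Col5a3. Col7a1 was at 0.33 to 0.834 FPKM in GSK4112 and 0.237 to 1.02 FPKM in Control libraries, and Col18a1 at 0.421 to 0.611 and 0.408 to 0.503 FPKM. Col2a1, Col8a2, Col13a1, Col22a1, Col26a1 and Col28a1 were listed at 0 in at least 1 library and had at most 6 fragments in any.

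Genes that process and bind collagen were taken from lists of the pathway. Of 29 tested genes of collagen processing and crosslinking limma called 1 higher and 1 lower (median log2 change -0.07, against 0.0543 over all genes; 1.03% of all genes were called). Pcolce, which enhances removal of the procollagen C-propeptide (chromosome 5, 137605103 to 137613784, minus strand), was at 57, 53.6 and 59.5 FPKM in GSK4112, against 116, 125 and 127 FPKM in Control libraries. It fell by 1.10 ± 0.081 on the log2 scale (adjusted p = 0.00883), and without replicate 2 or 3 of either group it missed the threshold (0.0518 to 0.107). Sec23a, a coat protein of the vesicles that export procollagen from the endoplasmic reticulum, was at 40.7, 39.2 and 37.4 FPKM in GSK4112, against 28.4, 26.7 and 28.1 FPKM in Control libraries. It rose by 0.48 ± 0.074 (adjusted p = 0.046), a call that ended under median-of-ratios scaling (0.0509), TPM scaling (0.066), no filter (0.077) or no trend (0.0639), and without any 1 of the 6 libraries (0.058 to 0.238). The most abundant members were Sparc, a collagen-binding glycoprotein (513 ± 36.7 FPKM in GSK4112 and 531.5 ± 35.0 in Control libraries, SD, n = 3 each), and Serpinh1, the collagen chaperone HSP47 (457 ± 29.2 and 506 ± 58.7 FPKM). Neither was called. With the replicate block 3 were higher and 4 lower (6.89% of all genes were called).

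Of 7 tested collagen receptors 2 fell and 5 were not called (median log2 change -0.48), against 1.03% of all genes called. With the block 0 were higher and 4 lower, against 6.89% of all genes. Both that fell are alpha subunits of collagen-binding integrins. Itga2 was at 2.28, 2.13 and 2.05 FPKM in GSK4112, against 9.33, 7.37 and 7.79 FPKM in Control libraries (log2 change -1.53 ± 0.11, adjusted p = 0.00883 in limma). Itga11 was at 1.18, 1.66 and 1.88 FPKM in GSK4112, against 3.87, 3.85 and 3.7 FPKM in Control libraries (-0.91 ± 0.13, adjusted p = 0.0426). The call of Itga2 ended without GSK4112 replicate 2 or 3 or Control replicate 3 (0.0523 to 0.107). That of Itga11 ended without any 1 library other than GSK4112 replicate 1 (0.063 to 0.203), without a filter (0.131) and under TPM scaling (0.055). The shared beta subunit gene Itgb1 was at 257 ± 9.38 FPKM in GSK4112 and 269 ± 13.6 FPKM in Control libraries, and the receptor kinase gene Ddr1 at 99.4 ± 11.0 and 140.2 ± 27.8 FPKM (SD, n = 3 each). Neither was called, and Ddr1 was called lower with the block (adjusted p = 0.0424).

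The other 3 lists held no call in limma or limma-voom. With the replicate block limma called Timp3 (adjusted p = 0.0496), Lama1 (0.0375), Fos (0.0118) and Junb (0.0297) lower and none higher. Without both replicate 1 libraries limma called Timp3 (0.0298), Ccn2 (0.0103), Fos (0.00296), Tgfb2 (0.0177), Scx (0.035) and Smad3 (0.0373) lower and none higher. Over all genes 6.89% were called with the block and 7.03% without those libraries. The counts below are from all 6 libraries without the block. Among 5 tested proteases and inhibitors 0 were at an unadjusted p under 0.05 (median -0.05), with Timp1 and Timp2 the most abundant. Timp1 was at 72.05 ± 34.6 FPKM in GSK4112 and 84.5 ± 34.1 FPKM in Control libraries, and Timp2 at 61.2 ± 2.79 and 57.3 ± 9.81 FPKM. Among 11 basement membrane genes other than collagens 2 were at an unadjusted p under 0.05 (median -0.24). Hspg2, the proteoglycan perlecan, was at 90.5 ± 2.22 FPKM in GSK4112 and 116 ± 19.9 FPKM in Control libraries, and Lamb2, a laminin chain gene, at 77.8 ± 14.2 and 72.2 ± 8.96 FPKM. Among 21 regulators of collagen transcription 4 were at an unadjusted p under 0.05 (median 0.02), against 17% of all genes, with Fosl2, an AP-1 subunit gene, at 139 ± 20.4 FPKM in GSK4112 and 130 ± 38.0 FPKM in Control libraries. Ccn2, a matricellular target of TGF-beta, was at 86.6, 19 and 20.3 FPKM in GSK4112 and 92.1, 34.3 and 32.2 FPKM in Control libraries. With all libraries and no block it was not called (adjusted p = 0.734 in limma). Values after ± in these lists are SD (n = 3 each).

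**Figure D5:**
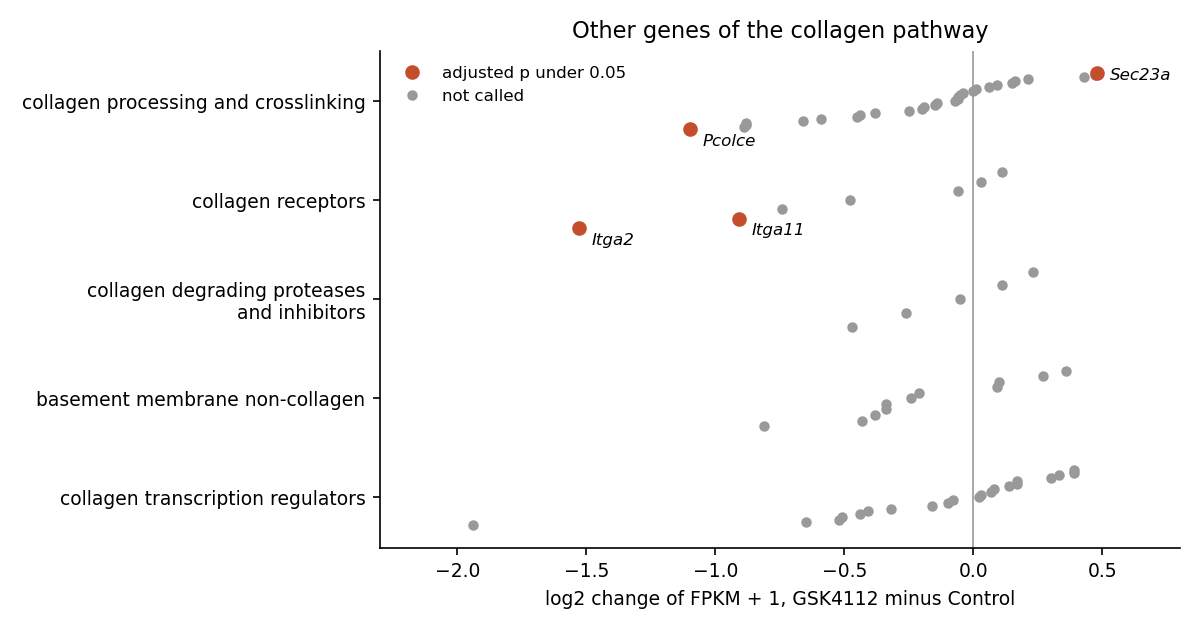
Log2 change of FPKM + 1, GSK4112 minus Control, of each tested gene of 5 lists of the collagen pathway; large points passed the test. Sec23a rose by 0.48, and Itga2 (-1.53), Pcolce (-1.10) and Itga11 (-0.91) fell. The far left grey point is Fos (-1.94), not called in the fit shown. It was called lower with the replicate block and also without both replicate 1 libraries.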

How the data were processed

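RNA from 3 GSK4112 and 3 Control libraries was sequenced, with groups and replicate numbers from the sample titles. The deposited table holds FPKM values made by the authors, fragments scaled to exon length and library size, on build GRCm38 per the submitters' processing notes. The aligner, the counter and its strand setting, and the annotation release were not given in the sources used here, so overlapping genes cannot be told apart. Symbols and coordinates came from GENCODE M21 (27098 of 27151 IDs matched). FPKM multiplied by exon length gave library totals, with which, of values above 0 and below 500 fragments, 92.8 to 93.1% came out whole to a tolerance of 0.01.

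The 12181 genes averaging 1 FPKM or more entered a limma fit (version 3.58.1, R 4.3.3) of log2(FPKM + 1) that let the variance follow the mean, with Benjamini-Hochberg adjustment over all of them. This scale understates changes of low genes. Results and errors (SE) are GSK4112 minus Control. Limma was tested on simulated data.

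Libraries with the same number deviated together from their group means, with correlations of 0.665, 0.326 and 0.213, over the limit of 0.1, so the number was also fitted as a block. No label gives this pairing. GSK4112 replicate 2 correlated at 0.53 with Control replicate 3, and GSK4112 replicate 3 at 0.357 with Control replicate 2. Deviations within a group sum to 0, and replicate 1 stood apart in both groups. The correlations therefore cannot show that replicates 2 and 3 are paired by number. Alternatives were pseudocounts, filters, scalings, variance models, the block, a stricter threshold and each library left out. Leaving out both replicate 1 libraries and limma-voom on recovered fragments were added after seeing the data, as were all alternatives for the pathway lists.

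All expressed collagens are named, and from each pathway list the called genes and the 2 most abundant. Nt5dc1, BX649560.1, Fos, Timp3, Lama1, Junb, Tgfb2, Scx, Smad3, Col11a2 and other low collagens, and the markers were named after their values were seen. The members and lists were chosen with earlier results of these data known.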

Additional observations from a re-analysis of the deposited data

How the results depend on the processing

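Col8a1 and Col10a1 kept their direction under every alternative that gave them a value, with log2 changes of -2.38 to -1.96 and -2.03 to -1.77 when 1 library was left out. Over the main fit and the other alternatives Col8a1 ran from -2.38 to -2.13 and Col10a1 from -2.54 to -1.86. The change of Col10a1 was -2.54 by limma-voom and -2.45 with a pseudocount of 0.1. The count of collagens called, 2 of 18, was 0 to 3 when 1 library was left out, 1 without a filter (Col10a1; Col8a1 at an adjusted p of 0.0582), 1 with a mean FPKM of at least 5, which Col10a1 does not reach, and 0 at an adjusted p under 0.01 in limma (4 at an unadjusted p under 0.05). It was 4 with the replicate block, 4 without both replicate 1 libraries, and 4 with both of these. With sample weights it was 3. Pairing by replicate number changed no other call among the collagens than those of Col11a1 and Col20a1. Over all genes 126 were called: 26 without a filter, 70 under TPM scaling, 830 with sample weights, 839 with the replicate block, 6 at an adjusted p under 0.01, 856 without both replicate 1 libraries, 1139 with that and the block, and 0 to 153 when 1 library was left out. Of the pathway genes 4 were called (1 higher, 3 lower): 2 without a filter, 2 under TPM scaling, 3 under median-of-ratios scaling (0 higher, 3 lower), 2 at an adjusted p under 0.01, 9 with sample weights, 15 with the replicate block, 14 without both replicate 1 libraries, 18 with that and the block, and 0 to 3 when 1 library was left out. Small log2 changes reversed. Under median-of-ratios scaling Col4a5 was at -0.05 and Col4a6 at -0.004. With sample weights Col4a5 was at -0.018 and Col15a1 at 0.076. Without both replicate 1 libraries, with or without the block, Col4a5 was at -0.013, Col15a1 at 0.16 and Col6a2 at -0.031. With 1 library left out the ranges that crossed 0 were -0.15 to 0.43 for Col4a1, -0.11 to 0.35 for Col4a2, -0.045 to 0.076 for Col4a5, -0.12 to 0.21 for Col4a6, -0.19 to 0.32 for Col5a1, -0.88 to 0.25 for Col5a2, -0.63 to 0.25 for Col1a1, -0.52 to 0.14 for Col6a1, -0.31 to 0.4 for Col6a2 and -0.3 to 0.32 for Col15a1. Class sums moved by less than the spread between libraries: with 1 library left out the log2 ratio of mean sums was -2.46 to -2.02 for network-forming, -1.27 to -0.19 for fibrillar and -0.17 to 0.39 for basement membrane collagens. The causes of these changes were not tested. Depth limits low collagens such as Col25a1, with 4 to 32 fragments a library. An exact permutation test cannot go below 0.1 here.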
